A study of Mus musculus with 20 samples.

Results

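The genes described here are Myc and 43 genes of ribosome biogenesis, 44 in all, measured in mouse intestinal epithelial cells. They were taken as a named list and matched on the array by gene name or by RefSeq accession, and all 44 were found, on 81 of the array's 41174 probes. All 44 passed the filter on dim probes and were tested among 21909 features. They comprise Myc, 4 RNA polymerase I subunits, 7 nucleolar and snoRNP proteins, 18 small-subunit assembly factors and 14 large-subunit assembly factors. The epithelium came from 5 genotypes with 4 mice each, all healthy, untreated, 28 days old and of the strain given in the labels as C57BBL6. The genotypes were wild type (wt), Trif mut, Tlr3 KO, Tlr4 KO and MyD88 KO. Trif mut (Trif LPS/LPS) carries a mutation of the adaptor of TLR3 and of one arm of TLR4 signalling. Tlr3 KO lacks the receptor for double-stranded RNA and Tlr4 KO the receptor for lipopolysaccharide. MyD88 KO lacks the adaptor of most Toll-like receptors, including the other arm of TLR4 signalling. No group carried a transgene or Cre according to the labels, which give neither the gut region nor whether the mutants were littermates of the wild type mice. Each array held the RNA of 1 animal, and p-values therefore reflect differences among individual mice.

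Myc is a transcription factor that pairs with Max, binds E-box sequences and is known for raising the expression of genes for ribosome assembly, nucleotide synthesis and cell growth. In the nucleolus, RNA polymerase I transcribes the ribosomal RNA precursor, snoRNPs modify it, and large sets of assembly factors, many of them GTPases and RNA helicases, fold and cut it into the small and large subunits. In the intestine Myc is a target of Wnt signalling, and its RNA and ribosome biogenesis are most active in the dividing cells of the crypts.

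Levels are log2 of the processed signal minus the 75th percentile of the same array, so a level of 0 lies at that percentile. Of the probes, between 64.8% and 73.4% lay well above background on the 16 wild type, Trif mut, Tlr3 KO and Tlr4 KO arrays and between 70.9% and 85.5% on the MyD88 KO arrays; the brightest probe of every one of the 44 genes did so on 20 of 20 arrays. Same-numbered arrays of the first 4 genotypes shared a slide, whereas the MyD88 KO arrays lay on 4 further slides, scanned on another day with another scanner, so that genotype and scan cannot be told apart for MyD88 KO. Tlr3 averaged -8.48 ± 0.22 (SD, n = 4) in Tlr3 KO against -1.45 ± 0.15 in wild type, and Myd88 averaged 0.91 ± 0.11 in MyD88 KO against 2.18 ± 0.13. The Tlr4 probe was well above background on 0 wild type arrays and checks nothing, and Ticam1, which encodes TRIF, averaged 2.06 ± 0.27 in Trif mut against 1.40 ± 0.15, a mutant whose transcript need not be lost. The Y-linked Eif2s3y lay above Xist, which female cells transcribe, on 3 of 4 Trif mut, 1 of 4 Tlr3 KO and 4 of 4 MyD88 KO arrays and on 0 of the wild type and Tlr4 KO arrays, so sex was unequal between the groups, and sex and genotype cannot be told apart in MyD88 KO against wild type. The 10 epithelial markers, Epcam, Cdh1 and keratins among them, were all well above background on all arrays. The 11 T and NK cell genes on the array were so as well, so detection alone does not separate epithelium from admixed lymphocytes. In wild type the summed level (log2) was 10.2 to 10.6 for the epithelial markers and 3.50 to 4.46 for the T and NK genes.

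The sequences below show where the letters of the Myc and Max motif occur among these genes and what the array read for Myc itself. The E-box CACGTG, which reads the same on both strands, was sought in RefSeq promoters of build GRCm38.p6, from 250 bases before to 50 bases after each gene's start. The table held promoters of 35 of the 44 genes (79.5%), which is too few for a comparison with other genes, and 6 of those 35 held the motif: Imp4, Ltv1, Pes1, Tsr1, Wdr43 and Utp20. Of all 27025 genes in the table, 2187 (8.09%) held it. In Imp4 the motif lay before the start and in the others just after it. A match is a description of the letters and not a binding site. The 30-base windows of 5 of the 6 genes follow, 5′ to 3′ on the gene's strand with the E-box in capitals; the window of Utp20 runs past the end of the tabulated promoter.
Imp4, chr1:34439696-34439725, plus strand: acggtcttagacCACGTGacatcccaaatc
Ltv1, chr10:13193092-13193121, minus strand: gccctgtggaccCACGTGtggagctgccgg
Pes1, chr11:3963965-3963994, plus strand: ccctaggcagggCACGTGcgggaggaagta
Tsr1, chr11:74898092-74898121, plus strand: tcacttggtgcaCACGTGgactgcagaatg
Wdr43, chr17:71616220-71616249, plus strand: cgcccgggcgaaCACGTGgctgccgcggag
Myc was read by 3 probes. The brightest, which gives the Myc values, lies at chr15:61821516-61821576 of the files' build, mm9, and the sequence shown is that of the probe with the smallest standard error, at chr15:61820925-61820984, to show what the array read.
Myc probe A_52_P278549: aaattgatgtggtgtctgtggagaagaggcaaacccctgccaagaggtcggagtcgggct

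In Trif mut and in Tlr3 KO epithelium Myc and nearly all of the ribosome biogenesis genes fell. Of the 44 genes, 39 fell in Trif mut against wild type (adjusted p under 0.05, limma) where 15.7% of all features fell, and 0 rose (0 at an unadjusted p under 0.05) where 28.4% of all features rose. In Tlr3 KO 42 of the 44 fell where 14% of all features fell, and 0 rose (0 unadjusted) where 24.3% of all features rose. The median log2 difference of the 44 genes was -1.53 in Trif mut, beside 0.19 over all features, and -1.04 in Tlr3 KO, beside 0.21. Both comparisons share the wild type arrays, so their values are given side by side and are not independent of each other. All 44 differences lay below 0 in both, and 38 genes in Trif mut and 42 in Tlr3 KO had all 4 mutant arrays below all 4 wild type arrays. The share of all features that separated in this way is not given here, so these 2 counts stand as description alone. These are levels in bulk epithelium, in which fewer cells that express a gene and less RNA per cell cannot be told apart.

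Array by array, the median of the 44 genes, taken relative to each gene's wild type mean, was 0.26, -0.20, -0.11 and 0.08 in wild type replicates 1 to 4. It was -1.29, -1.80, -1.72 and -1.24 in Trif mut and -0.83, -1.38, -1.20 and -0.74 in Tlr3 KO. No Trif mut or Tlr3 KO array reached the lowest wild type array. In both mutants, as in wild type, replicates 2 and 3 were the lowest. Within the 4 shared slides the median of mutant minus wild type was -1.52, -1.57, -1.60 and -1.28 for Trif mut, with 42 to 44 of the 44 genes below 0, and -1.10, -1.19, -1.10 and -0.86 for Tlr3 KO, again with 42 to 44 below 0. Of all features, between 36.0% and 42.3% lay below 0 on these slides for Trif mut and between 33.3% and 42.7% for Tlr3 KO. Only the arrays where Xist exceeded Eif2s3y were also fitted, a choice made after the data had been seen. The median difference was then -1.24 in Trif mut, which rests on 1 array, and -0.99 in Tlr3 KO (3 arrays).

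**Figure D1:**
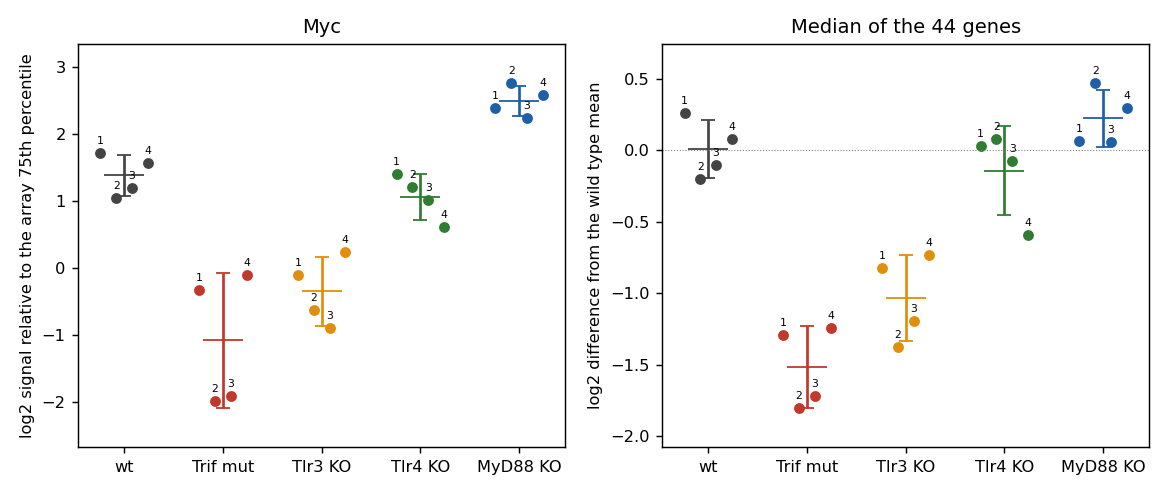
Log2 signal of Myc relative to the array's 75th percentile (left) and the median over the 44 genes of each array's log2 difference from the wild type mean (right), by genotype. Numbered points are single mice, and bars give the mean ± SD (n = 4). The 4 Trif mut and 4 Tlr3 KO points lie below all wild type points in both panels, and the MyD88 KO points of Myc lie above them.

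Myc itself was high in wild type, at 1.71, 1.05, 1.19 and 1.57 in replicates 1 to 4. Its level was -0.33, -1.98, -1.91 and -0.10 in Trif mut. In Tlr3 KO it was -0.10, -0.63, -0.90 and 0.24. All 8 mutant arrays lay below the lowest wild type array, and Trif mut fell into a higher pair (replicates 1 and 4) and a lower pair (2 and 3), with an SD of 1.01 against 0.31 in wild type. Replicates 2 and 3 were also the lowest wild type and Tlr3 KO arrays. Myc fell by 2.46 ± 0.37 (SE) on the log2 scale in Trif mut, 5.51-fold (adjusted p = 6.3e-05), and by 1.73 ± 0.37 in Tlr3 KO, 3.31-fold (adjusted p = 0.0018). The other probes of Myc gave -2.69 and, for the printed one, -1.83 in Trif mut and -1.89 and -1.19 in Tlr3 KO. With Xist as a covariate the Myc difference was -1.77 in Trif mut and -1.52 in Tlr3 KO. This adjustment rests on few arrays, since Eif2s3y lay above Xist on 3 of 4 Trif mut, 1 of 4 Tlr3 KO and 0 of 4 wild type arrays.

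Among the RNA polymerase I genes, 3 of 4 fell in each of these mutants, with a median of -2.07 in Trif mut and -1.31 in Tlr3 KO. Polr1e, a subunit found in polymerase I alone, was at -1.25, -2.05, -1.69 and -1.58 in wild type, at -3.77, -4.69, -4.51 and -3.21 in Trif mut and at -2.71, -3.55, -3.20 and -2.81 in Tlr3 KO. Neither mutant overlapped the wild type. It fell by 2.40 ± 0.28 in Trif mut (5.28-fold, adjusted p = 9.6e-06) and by 1.42 in Tlr3 KO (adjusted p = 0.001). Polr1e is dim, and after normexp background correction its difference was -0.90 (adjusted p = 0.092) in Trif mut and -0.92 (adjusted p = 0.13) in Tlr3 KO. Polr1a, the largest catalytic subunit, fell by 2.26 ± 0.30 in Trif mut (adjusted p = 2.1e-05) and by 1.49 in Tlr3 KO, and Polr1b, the other large subunit of the catalytic core, by 1.87 and 1.19. Polr1c, a subunit that polymerase I shares with polymerase III, differed from them: it measured 3.03, 2.86, 2.73 and 2.74 in wild type, 2.77, 2.70, 2.87 and 2.90 in Trif mut and 2.53, 2.55, 2.69 and 2.79 in Tlr3 KO. The groups overlapped, and its differences were -0.03 ± 0.12 (adjusted p = 0.85) and -0.20 ± 0.12 (adjusted p = 0.21).

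All 7 nucleolar and snoRNP genes fell in both mutants, with medians of -1.80 and -1.29. Dkc1, dyskerin, the pseudouridine synthase of H/ACA snoRNPs, changed most of the 44 genes in Trif mut. Its level was -0.61, -1.04, -0.87 and -0.57 in wild type, -2.94, -4.10, -3.83 and -2.30 in Trif mut and -2.19, -3.03, -2.86 and -1.98 in Tlr3 KO. There was no overlap with wild type, and replicates 2 and 3 were the lowest arrays in wild type and in both mutants, as for Myc. Dkc1 fell by 2.52 ± 0.33 in Trif mut (5.73-fold, adjusted p = 2.2e-05) and by 1.74 ± 0.33 in Tlr3 KO (3.34-fold, adjusted p = 0.00079). The abundant histone and ribosome chaperone Npm1, nucleophosmin, changed least in this group in Trif mut. It measured 5.01, 4.86, 4.81 and 5.21 in wild type, 4.23, 3.51, 3.61 and 4.39 in Trif mut and 4.24, 3.71, 3.79 and 4.55 in Tlr3 KO, again without overlap. Npm1 fell by 1.04 ± 0.22 (2.05-fold, adjusted p = 0.00087) and by 0.90 (1.87-fold, adjusted p = 0.0036). Of the C/D snoRNP core, fibrillarin (Fbl), the methyltransferase of ribosomal RNA, fell by 1.98 and 1.34, and Nop58 fell by 1.42 and 0.90. The snoRNP chaperone Nolc1 fell by 2.11 ± 0.32 in Trif mut (adjusted p = 6.5e-05) and 1.69 in Tlr3 KO, the helicase Ddx21 by 1.80 and 1.29 and nucleolin (Ncl) by 1.33 and 1.19.

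Of the 18 small-subunit factors 17 fell in Trif mut (median -1.49) and 17 in Tlr3 KO (median -0.99). Utp20, a large scaffold of the small-subunit processome, measured 1.15, 0.43, 0.71 and 0.77 in wild type, -1.16, -2.08, -2.14 and -1.07 in Trif mut and -0.17, -1.20, -0.92 and -0.14 in Tlr3 KO. Every mutant array lay below the wild type arrays, and Utp20 fell by 2.37 ± 0.29 in Trif mut (5.18-fold, adjusted p = 1.2e-05) and by 1.37 ± 0.29 in Tlr3 KO (2.59-fold, adjusted p = 0.0016). A dimmer probe of Utp20 gave -0.06 and 0.31 and did not share this difference. Heatr1, another scaffold of the processome, fell by 2.27 ± 0.25 in Trif mut (adjusted p = 6.6e-06) and 1.34 in Tlr3 KO. Nat10, which acetylates cytidines of the small-subunit ribosomal RNA, fell by 2.14 and 1.20, and Rrp9, a protein of the U3 snoRNP, by 1.90 and 1.03. Rcl1, a processing factor, fell by 1.95 ± 0.21 in Trif mut (adjusted p = 4.4e-06) and by 0.60 in Tlr3 KO (adjusted p = 0.03).

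Imp3, a partner of the U3 snoRNP, was the small-subunit gene that did not pass in Trif mut. Its level was 2.34, 2.07, 2.15 and 1.93 in wild type and 2.17, 1.90, 1.95 and 1.83 in Trif mut, with overlap and a difference of -0.16 ± 0.15 (adjusted p = 0.4). In Tlr3 KO Imp3 was at 1.73, 1.52, 1.43 and 2.02, of which replicate 4 lay within the wild type range, and it fell by 0.45 ± 0.15 (adjusted p = 0.023). Ltv1, which acts in late assembly and export of the small subunit, fell by 0.66 in Trif mut (adjusted p = 0.0009), while its difference in Tlr3 KO was -0.27 (adjusted p = 0.13). The remaining processome genes Wdr3, Wdr43, Utp6, Utp15 and Nop14 fell by 0.54 (Utp6) to 1.64 (Wdr43) in Trif mut and by 0.41 (Utp6) to 1.31 (Utp15) in Tlr3 KO. Imp4, partner of Imp3, fell by 1.18 (adjusted p = 0.016) and 1.03 (adjusted p = 0.038), with 1 Trif mut array inside the wild type range. The later factors Bysl, Nob1 (the nuclease of the final cut), Tsr1 and Rrp12 (an export factor) fell by 1.40, 1.40, 1.52 and 1.47 in Trif mut and by 0.95, 0.93, 0.93 and 0.95 in Tlr3 KO, and the helicase Ddx10 by 0.96 and 1.09.

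Of the 14 large-subunit factors 11 fell in Trif mut (median -1.16) and 14 in Tlr3 KO (median -0.90). Gnl3, nucleostemin, a nucleolar GTPase known from stem cells and dividing cells, measured 0.57, -0.02, -0.05 and 0.30 in wild type, -1.97, -2.61, -2.37 and -1.57 in Trif mut and -0.70, -1.46, -1.37 and -0.62 in Tlr3 KO. The 3 groups did not overlap, with Trif mut lowest and wild type highest. Gnl3 fell by 2.33 ± 0.24 in Trif mut (5.02-fold, adjusted p = 3.2e-06) and by 1.24 ± 0.24 in Tlr3 KO (2.36-fold, adjusted p = 0.00076). Its relative Gnl3l, a GTPase of the same family, was at 1.03, 0.89, 0.93 and 1.18 in wild type, 0.98, 0.85, 0.93 and 1.21 in Trif mut and 0.35, 0.63, 0.70 and 0.52 in Tlr3 KO. Trif mut and wild type overlapped, whereas all Tlr3 KO arrays lay below both. The Gnl3l difference was -0.02 ± 0.12 in Trif mut (adjusted p = 0.93), and Gnl3l fell by 0.45 ± 0.12 in Tlr3 KO (adjusted p = 0.008). A dimmer probe of Gnl3l gave -0.47 ± 0.15 in Trif mut and -0.74 in Tlr3 KO, and -0.50 in Tlr4 KO and -0.45 in MyD88 KO, so the probes disagree in Trif mut and MyD88 KO.

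Gnl2, a further GTPase of that family, and Rpf1, a factor of pre-ribosomal RNA processing, were the other large-subunit genes that did not pass in Trif mut, at -0.24 (adjusted p = 0.12) and -0.25 (adjusted p = 0.051), while in Tlr3 KO they fell by 0.44 (adjusted p = 0.0081) and 0.43 (adjusted p = 0.0029). The 3 subunits of the PeBoW complex, which large-subunit rRNA processing requires, fell by unequal amounts: Wdr12 by 2.13 and 1.33, Bop1 by 0.94 and 0.80 and Pes1 by 0.81 and 0.87 in Trif mut and Tlr3 KO. Of the remaining factors, Nop16, Mrto4, Rrp1b, Nip7 and the helicase Ddx18 fell by 1.39 (Nip7) to 1.94 (Rrp1b) in Trif mut and by 0.85 (Mrto4) to 1.35 (Nop16) in Tlr3 KO. The helicases Ddx27 and Ddx56 fell by 0.76 and 0.76 in Trif mut and by 1.04 and 0.71 in Tlr3 KO. Dimmer probes gave -0.28 and -0.12 for Ddx27, -0.03 and -0.04 for Ddx56 and, for 1 of the 4 Rrp1b probes, -0.01 and 0.19.

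**Figure D2:**
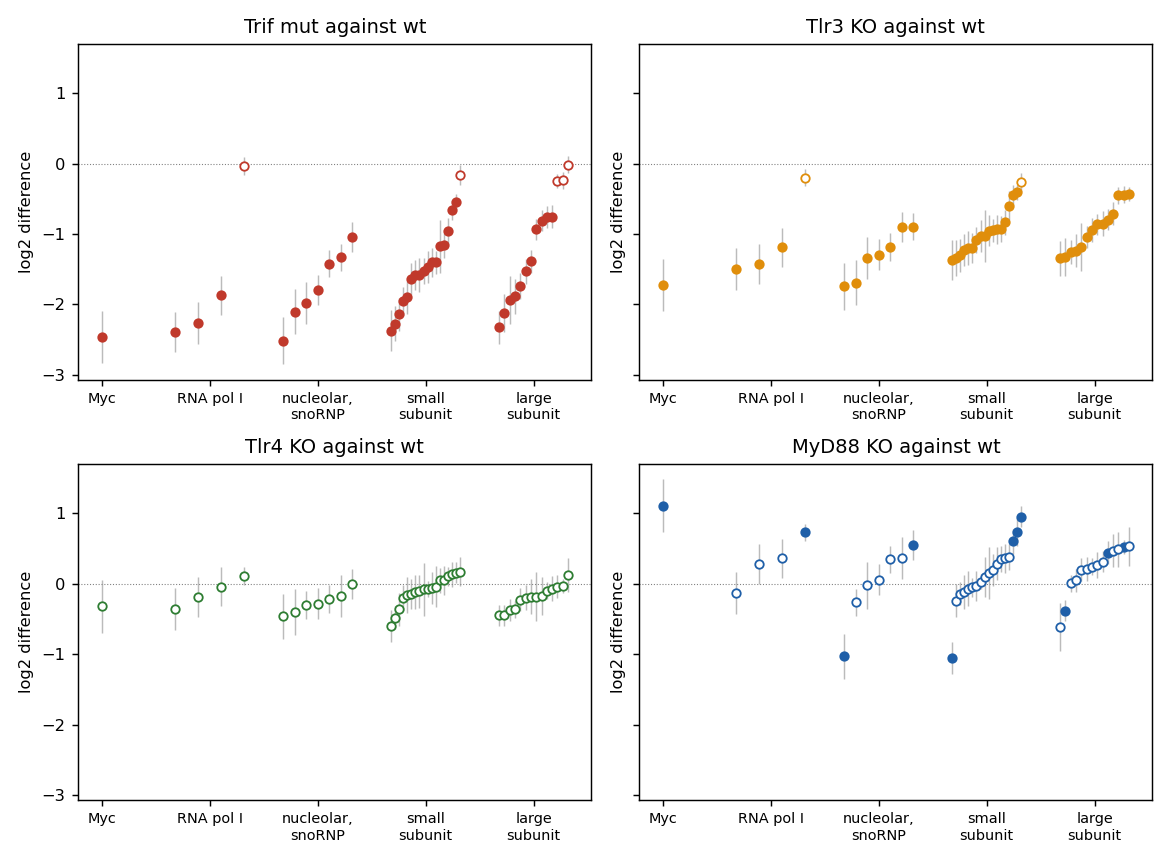
Log2 difference from wild type ± SE (n = 4 mice per genotype) of each of the 44 genes in Trif mut, Tlr3 KO, Tlr4 KO and MyD88 KO, 1 panel per genotype, with genes grouped by role. Filled points have an adjusted p under 0.05 and open points do not. Filled points below 0 number 39, 42, 0 and 3, and filled points above 0 number 0, 0, 0 and 8.

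The 2 mutants were then compared with each other directly. In Trif mut 10 of the 44 genes were lower than in Tlr3 KO where 9.81% of all features were lower, and 1 was higher where 10.3% of all features were higher; 23 were lower and 1 was higher at an unadjusted p under 0.05. The median difference of the 44 was -0.45, beside -0.05 over all features. The gene with the largest difference was Rcl1, at -1.35 ± 0.21 (adjusted p = 0.00028), followed by Gnl3 at -1.09 ± 0.24 (adjusted p = 0.0038), whose groups did not overlap. Utp20 (-1.0), Polr1e (-0.97), Nat10 (-0.94), Heatr1 (-0.93), the ribosomal stalk assembly factor Mrto4 (-0.89), Rrp9 (-0.87), Wdr12 (-0.79) and Tsr1 (-0.60) were also lower. Gnl3l was the gene that was higher in Trif mut, by 0.44 ± 0.12 (adjusted p = 0.018), with all 4 Trif mut arrays above all 4 Tlr3 KO arrays on the brighter of its 2 probes. For Myc the direct difference was -0.73 ± 0.37 (adjusted p = 0.18), and the Myc levels overlapped. The calls depended on the processing: 2 were lower and 0 higher after normexp background correction, where Polr1e stood at 0.02, 6 and 1 after median scaling, and 3 and 1 with Xist as a covariate, whereas Rcl1 and Mrto4 passed in all of these.

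**Figure D3:**
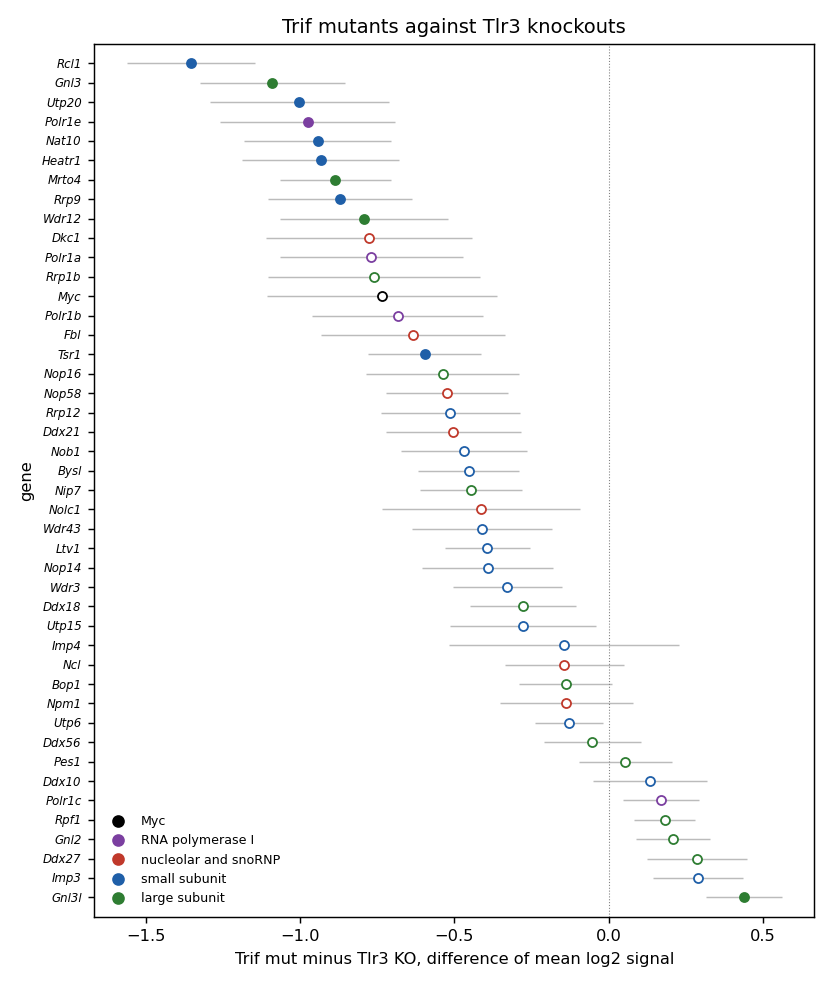
Direct log2 difference, Trif mut minus Tlr3 KO, ± SE for each of the 44 genes, coloured by role. Filled points have an adjusted p under 0.05. Of them, 10 lie below 0, with Rcl1 the lowest at -1.35, and Gnl3l lies above it at 0.44.

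In Tlr4 KO epithelium 0 of the 44 genes fell and 0 rose against wild type (limma, adjusted p under 0.05), where 3.16% of all features fell and 9.39% rose. This fit held no slide term, although same-numbered Tlr4 KO and wild type arrays shared a slide and deviated together. At an unadjusted p under 0.05, 6 were lower and 0 were higher. Between 0 and 4 fell under the other settings. The count was above 0 with slide as a fixed block or as a random block, and 4 with the latter. The median difference was -0.16, beside 0.01 over all features, and 36 of 44 lay below 0. Myc measured 1.41, 1.20, 1.01 and 0.61, which overlapped the wild type, and differed by -0.32 ± 0.37 (adjusted p = 0.67). Replicate 4 was the lowest Tlr4 KO array for Myc, and its median over the 44 genes was -0.60, against 0.03, 0.08 and -0.08 for replicates 1 to 3. Within slides the median of Tlr4 KO minus wild type was -0.26, 0.29, 0.02 and -0.70, so the slides did not share a direction. Of the 44 genes 39, 5, 19 and 43 lay below 0, beside 39.5%, 49.7%, 54.3% and 46.9% of all features.

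The role groups had medians of -0.11 (polymerase I), -0.28 (nucleolar and snoRNP), -0.08 (small subunit) and -0.18 (large subunit) in Tlr4 KO. Rrp12, the export factor, was at -1.18, -1.52, -1.34 and -1.23 in wild type and at -1.68, -1.62, -1.91 and -2.48 in Tlr4 KO. These groups did not overlap, and the difference was -0.60 ± 0.23 (adjusted p = 0.096). Bop1 was at 2.76, 2.46, 2.52 and 2.64 in wild type and at 2.29, 2.24, 2.27 and 1.78 in Tlr4 KO, with a difference of -0.45 ± 0.15 (adjusted p = 0.062) and again no overlap. Its partner Pes1 (-0.45, adjusted p = 0.062; -1.99 by a dimmer probe) and Gnl3l, at 0.46, 0.53, 0.83 and 0.74 (-0.36 ± 0.12, adjusted p = 0.062), were the other genes without overlap. For Polr1e, at -1.70, -1.55, -1.70 and -2.38, the difference was -0.19 (adjusted p = 0.77). Polr1c measured 3.13, 3.14, 2.89 and 2.66 and differed by 0.11 (adjusted p = 0.66). Dkc1 was at -1.17, -0.95, -1.02 and -1.56 and differed by -0.40 (adjusted p = 0.53), with replicate 4 again the lowest. For Npm1, at 4.98, 5.16, 4.94 and 4.80, the difference was -0.01 (adjusted p = 0.99). Utp20 measured 0.98, 1.03, 0.78 and 0.09 and differed by -0.04 (adjusted p = 0.96). Gnl3 was at 0.51, 0.55, 0.33 and -0.09 and Imp3 at 2.45, 2.47, 2.16 and 2.06, with differences of 0.12 (adjusted p = 0.82) and 0.16 (adjusted p = 0.58). All of these but Rrp12, Bop1, Pes1 and Gnl3l overlapped the wild type.

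Set directly against Tlr4 KO, 37 of the 44 genes were lower in Trif mut (17.5% of all features were) and 1, Gnl3l, was higher by 0.35 (adjusted p = 0.03; 23.5% of all features were higher). Polr1c, Imp3, Pes1, Gnl2, Rpf1 and Ddx56 did not pass. For Trif mut against Tlr4 KO, 31 were lower after normexp background correction, 37 under median scaling and 31 with Xist as a covariate. In each of these settings 0 were higher, so the Gnl3l call was lost. After quantile normalization 41 were lower and 1 was higher. On its dimmer probe Gnl3l lay below wild type by similar amounts in Trif mut and Tlr4 KO. In Tlr3 KO 38 of the 44 were lower than in Tlr4 KO (13.4% of all features), and 0 were higher (0 unadjusted) where 16.9% of all features were. After normexp background correction 23 were lower. The genes that did not pass were Polr1c, Imp4, Rrp12, Bop1, Gnl3l and Ddx56. The medians of the 44 were -1.39 and -0.95, and Myc was lower by 2.14 (adjusted p = 0.00021) in Trif mut and by 1.40 (adjusted p = 0.012) in Tlr3 KO, without overlap in either.

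In MyD88 KO epithelium the genes did not move together. Against wild type 8 of the 44 rose and 3 fell, where 36.4% of all features rose and 12.4% fell, so both shares of the 44 (18.2% and 6.82%) lay below those of all features. The median difference was 0.23, beside 0.30 over all features. This split depends on the scaling: when each array was scaled to its median in place of its 75th percentile, 1 of the 44 rose (Imp3) and 8 fell, and the median was -0.17, beside -0.10 over all features. Over all features the split moved from 36.4% higher and 12.4% lower to 15% and 28.3%.

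Myc was at 2.38, 2.76, 2.24 and 2.58 in MyD88 KO, above every wild type array, and rose by 1.11 ± 0.37 (2.16-fold, adjusted p = 0.021). With median scaling the Myc difference was 0.71 (limma, adjusted p = 0.15), and without MyD88 KO replicate 2 or wild type replicate 2 its adjusted p was 0.051 or 0.058. With Xist as a covariate it was 2.03 (adjusted p = 0.0043). That fit cannot separate sex from genotype, because Eif2s3y lay above Xist on 4 of 4 MyD88 KO and 0 of 4 wild type arrays. The other probes of Myc both gave 0.95. Imp3 measured 3.16, 3.32, 2.80 and 3.03, above all wild type arrays, and rose by 0.95 ± 0.15 (1.94-fold, adjusted p = 0.00012). Polr1c, at 3.64, 3.74, 3.27 and 3.64, rose by 0.73 ± 0.12 (1.66-fold, adjusted p = 0.00025), and Npm1, at 5.31, 5.86, 5.24 and 5.69, rose by 0.55 ± 0.22 (1.47-fold, adjusted p = 0.042). None of the 3 overlapped the wild type. Nob1 (0.74), Wdr3 (0.60), Rpf1 (0.52) and Nip7 (0.44) were the other genes that rose, and of these 8 genes Imp3 alone passed under median scaling.

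The 3 genes that fell were Nolc1, Rrp12 and Bop1. Nolc1 was at 2.16, 1.81, 1.90 and 2.13 in wild type and at 0.40, 1.34, 0.85 and 1.31 in MyD88 KO, without overlap, and fell by 1.03 ± 0.32 (2.04-fold, adjusted p = 0.014). A dimmer probe of Nolc1 gave -0.04, while dimmer probes gave -1.53 ± 0.25 and -0.69 ± 0.20 for Ddx21, whose brightest gave 0.06, and -0.65 ± 0.27 for Nop14, whose brightest gave -0.03. Rrp12, at -2.66, -2.22, -2.33 and -2.30, fell by 1.06 ± 0.23 (2.08-fold, adjusted p = 0.0013), again without overlap. Bop1, at 2.27, 2.56, 1.73 and 2.30, fell by 0.38 ± 0.15 (adjusted p = 0.045), with replicate 2 inside the wild type range. These 3 were also lower under median scaling.

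Several genes that fell most in Trif mut did not pass in MyD88 KO. Polr1e, at -1.47, -1.20, -1.45 and -1.32, differed by 0.28 (adjusted p = 0.42). Dkc1, at -1.09, -0.26, -1.11 and -0.71, differed by -0.02 (adjusted p = 0.96), and Utp20, at 0.75, 1.10, 0.77 and 0.83, by 0.10 (adjusted p = 0.8). All 3 overlapped the wild type. Gnl3, at 0.48, 0.86, 0.62 and 0.72, differed by 0.47 (adjusted p = 0.11), and Gnl3l, at 1.03, 1.28, 0.83 and 0.90, by 0.00 (adjusted p = 0.98), with overlap for both. By role, the medians were 0.32 for polymerase I (1 of 4 rose), 0.06 for nucleolar and snoRNP genes (1 rose, 1 fell), 0.12 for the small subunit (3 rose, 1 fell) and 0.25 for the large subunit (2 rose, 1 fell).

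Against MyD88 KO, 42 of the 44 genes were lower in Trif mut (36.6% of all features were) and 0 were higher (0 unadjusted; 27.1% of all features were), with a median of -1.75 beside -0.19 over all features. Rrp12 (-0.41) and Gnl3l (-0.02) were the genes that did not pass, and Myc was lower by 3.57 (adjusted p = 8.8e-07). Against Tlr4 KO, 17 of the 44 were higher in MyD88 KO (32.8% of all features were) and 0 were lower (0 unadjusted; 14.5% of all features were), with a median of 0.36 beside 0.24. Myc was higher by 1.43 (adjusted p = 0.0055), Imp3 by 0.79, Pes1 by 0.76, Wdr12 by 0.70 and Nop16 by 0.68. In this last comparison 9 of the 44 were higher after normexp background correction, and 3 were higher and 1 was lower under median scaling.

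The rest of the pathway was described with fixed lists. The counts of these lists, and of the cell type markers further below, stand beside the shares of all features. Of all features 15.7% fell and 28.4% rose in Trif mut, and 14% fell and 24.3% rose in Tlr3 KO. In Tlr4 KO 3.16% fell and 9.39% rose, and in MyD88 KO 12.4% fell and 36.4% rose. Among 86 other ribosome biogenesis genes 69 fell and 2 rose in Trif mut (median -1.03), and 69 fell and 1 rose in Tlr3 KO (median -0.92). Rrp15 (-2.77), the giant ATPase Mdn1 (-2.70) and Nle1 (-2.63) changed most in Trif mut, and Rrp15 (-1.75), Lyar (-1.73) and Utp14a (-1.64) in Tlr3 KO, while Sdad1 (0.32) and Rrp36 (0.36) rose in Trif mut and Nop53 (0.34) in Tlr3 KO. In Tlr4 KO 0 of the 86 fell or rose (limma; 5 lower and 2 higher unadjusted), and in MyD88 KO 9 fell and 9 rose, with Tcof1 (-0.96), Nop53 (0.78) and Nvl (-0.71) the most changed. Under median scaling the MyD88 KO split was 21 and 0.

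Among 40 other Myc targets, chosen from nucleotide, polyamine and growth metabolism, 32 fell and 3 rose in Trif mut (median -0.98) and 27 fell and 3 rose in Tlr3 KO (median -0.69). The spermidine synthase Srm (-3.20), the purine enzyme Gart (-2.85) and the amino acid transporter Slc7a5 (-2.81) changed most in Trif mut, and the pyrimidine enzyme Cad (-1.88), the purine enzyme Ppat (-1.76) and Slc7a5 (-1.67) in Tlr3 KO. In both mutants Ldha (0.25 and 0.32), Tert (0.34 and 0.67) and Slc3a2 (0.60 and 0.75) rose, and in normexp-corrected values 0 of the 40 rose in either. In Tlr4 KO 2 fell and 1 rose. In MyD88 KO 6 fell and 9 rose, led by Ccnd2 (0.98), Paics (0.95) and Odc1 (-0.90), and under median scaling 10 fell and 2 rose.

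Of 15 genes of the Myc, Max and Mxd network 3 fell and 5 rose in Trif mut (median 0.33) and 1 fell and 8 rose in Tlr3 KO (median 0.31). The Trif mut shares lay near the 15.7% of all features that fell and the 28.4% that rose. In Tlr3 KO 14% of all features fell and 24.3% rose. In Trif mut the Myc antagonist Mxd3 (-1.80), Mycn (-1.44) and Mlxip (-0.50) fell, and the carbohydrate-responsive factor Mlxipl rose by 1.07. Mlxipl also rose by 1.06 in Tlr3 KO, 1.00 in Tlr4 KO and 0.84 in MyD88 KO. Mxd1, a Myc antagonist of differentiating cells, rose by 0.75 in Trif mut and 0.81 in Tlr3 KO and fell by 0.85 in MyD88 KO. In Tlr3 KO Mycl fell by 0.86. In Tlr4 KO 0 fell and 2 rose. In MyD88 KO 5 fell and 5 rose, Mycn by 1.56 and Mycl by 1.01, while Mxi1 fell by 0.97 and Max by 0.84. The median of this list in MyD88 KO was 0.24, and -0.15 under median scaling.

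The polymerase genes outside the 44 moved less as groups. Of 11 further polymerase I genes 3 fell and 1 rose in Trif mut, 4 fell in Tlr3 KO, 1 fell in Tlr4 KO and 3 rose in MyD88 KO. Cd3eap, a polymerase I subunit, fell by 1.78 in Trif mut and 1.40 in Tlr3 KO, the basal factor Taf1b by 0.44, 0.52 and, in Tlr4 KO, 0.57, and the terminator protein Ttf1 rose by 0.64 in Trif mut. Polr1d, shared with polymerase III, rose by 0.62 in MyD88 KO. Of 18 polymerase III genes 5 fell and 6 rose in Trif mut, 9 fell and 3 rose in Tlr3 KO, 1 rose in Tlr4 KO, and 1 fell and 7 rose in MyD88 KO. Polr3d fell by 1.40 and 0.98 in Trif mut and Tlr3 KO, and Maf1, the repressor of polymerase III, rose by 0.85 and 0.35. The share of polymerase III genes that rose in MyD88 KO lay near the 36.4% of all features that rose. In MyD88 KO the median of the polymerase III list was 0.22, and -0.18 under median scaling.

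The 79 cytosolic ribosomal protein genes, the parts that are assembled, did not follow the assembly factors in size. In Trif mut 28 fell and 2 rose (Rps12, 0.35; Fau, 0.45), with a median of -0.27, and in Tlr3 KO 7 fell and 3 rose, with a median of -0.12. Rpl14 changed most in both (-1.52 and -1.11), followed in Trif mut by Rps19 (-1.20) and Rpl31 (-1.05). These counts depend on the scaling, since after quantile normalization 66 fell and 0 rose in Trif mut (median -0.56) and 41 fell and 0 rose in Tlr3 KO (median -0.44), and with Xist as a covariate 9 fell in Trif mut. In Tlr4 KO 1 fell and 6 rose (median 0.25). In MyD88 KO 72 of the 79 rose and 0 fell (limma; 0 unadjusted), with a median of 0.66, led by Rps19 (1.41), Rps10 (1.23) and Rps9 (1.07), while under median scaling 16 rose and 1 fell. Many ribosomal protein genes have near-identical processed pseudogenes, which these probes may also read.

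**Figure D4:**
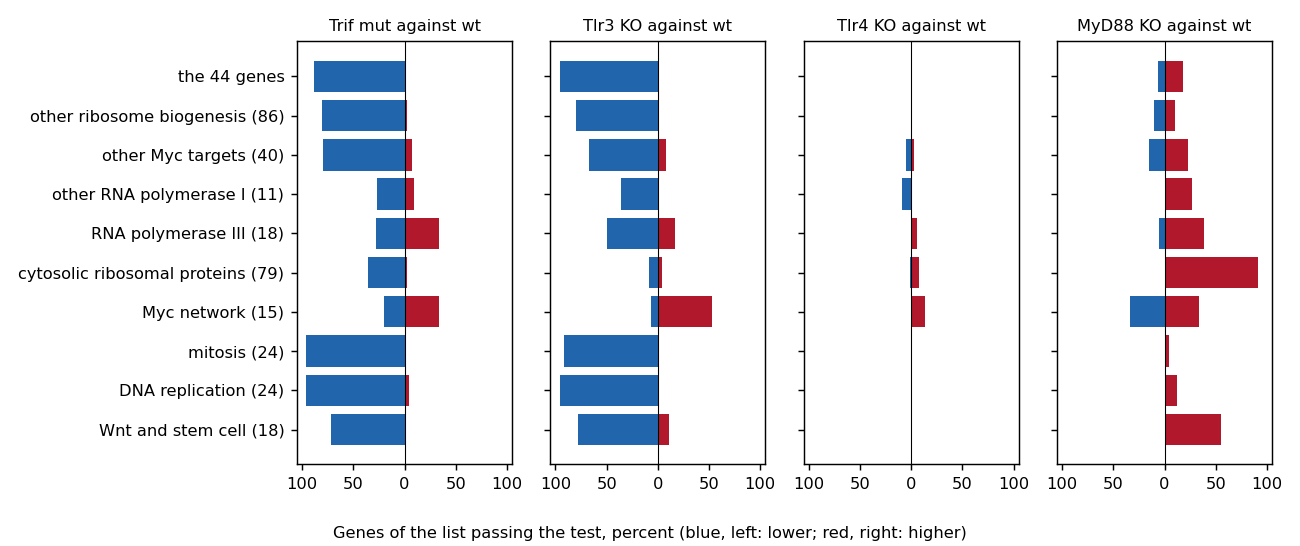
Percent of the tested genes of each list that passed an adjusted p of 0.05, lower (blue, to the left) or higher (red, to the right) than wild type, in 4 panels for Trif mut, Tlr3 KO, Tlr4 KO and MyD88 KO. Lower genes dominate the ribosome biogenesis, Myc target, mitosis and replication lists in Trif mut and Tlr3 KO, with 69 of 86 other ribosome biogenesis genes lower in each, and 72 of 79 ribosomal protein genes are higher in MyD88 KO.

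Genes of dividing crypt cells moved with Myc and the ribosome biogenesis genes. Of 24 mitosis genes 23 fell in Trif mut (median -2.48; Ttk -3.44, Cdk1 -3.32, Ccnb1 -3.14) and 22 in Tlr3 KO (median -1.34; Kif11 -1.74). Of 24 replication genes 23 fell in Trif mut (median -1.97; Mcm5 -3.09, Pola1 -3.07, Pole -2.79), and 23 fell in Tlr3 KO (median -1.25; Mcm3 -1.74). Of 18 Wnt target and stem cell genes 13 fell in Trif mut (median -1.15; Olfm4 -3.29, Ccnd1 -3.00, Tnfrsf19 -2.26), and 14 fell and 2 rose (Lef1, 0.90; Msi1, 0.48) in Tlr3 KO (median -0.96; Olfm4 -1.83). In Tlr4 KO 0 genes of these 3 lists passed (limma; 0 mitosis, 0 replication and 1 Wnt and stem gene lower unadjusted, 0 higher). In MyD88 KO 1 mitosis gene, 3 replication genes and 10 Wnt and stem genes rose, the last led by Olfm4 (1.96) and Ascl2 (1.25), and under median scaling 0, 0 and 2 rose. The lowest array medians of the mitosis genes were at -3.59 in Trif mut and -1.82 in Tlr3 KO, and the lowest Tlr4 KO array, replicate 4, which was also lowest for the 44 genes, was at -0.66.

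Markers of absorptive enterocytes, the mature cells of the villus, moved the other way. Of the 16, 14 rose in Trif mut and 11 in Tlr3 KO, 0 passed in Tlr4 KO (limma; 2 higher unadjusted), and 8 fell and 2 rose in MyD88 KO. Their summed level (log2) was 10.6 to 11.2 in wild type, 11.6 to 11.7 in Trif mut, 11.5 to 11.7 in Tlr3 KO, 11 to 11.3 in Tlr4 KO and 10.8 to 11.1 in MyD88 KO, so Trif mut and Tlr3 KO lay above the wild type without overlap. After quantile normalization 3 and 2 of the 16 rose in Trif mut and Tlr3 KO. Of the general epithelial markers 8 of 10 rose and 1 fell in Trif mut, 6 rose and 1 fell in Tlr3 KO, 0 passed in Tlr4 KO (limma; 1 higher unadjusted), and 4 rose and 1 fell in MyD88 KO. The part of the makeup of the cell preparation in the change of the 44 genes was not tested.

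Markers of cells outside the epithelium were counted in the same way. Of 11 T and NK cell genes 1 fell and 1 rose in Trif mut and 1 rose in Tlr3 KO; of 7 B and plasma cell genes 1 fell in Trif mut, and 1 fell and 1 rose in Tlr3 KO; of 9 myeloid genes 3 fell and 2 rose in Trif mut, and 2 fell and 2 rose in Tlr3 KO. Among the myeloid genes Lyz2 fell by 0.98 and 1.72, while Mrc1 rose by 3.15 and 2.63. Of 6 mast cell genes 0 passed in either (limma; 0 unadjusted), and of 10 stromal genes 1 rose in Trif mut and 2 in Tlr3 KO. The summed myeloid level was 5.27 to 6.28 in wild type, 4.2 to 5.27 in Trif mut and 3.52 to 4.61 in Tlr3 KO, a sum made up mostly of Lyz2 (5.69 in wild type, with the other 8 genes at -0.53 or lower), and that of B and plasma cells -0.78 to -0.18, -1.97 to -1.54 and -0.89 to -0.51. The summed T and NK level overlapped the wild type (3.50 to 4.46) in both, and the stromal level was 3.65 to 4.15 in wild type and 4.63 to 5.11 in Tlr3 KO. That sum is made up mostly of Acta2 (3.81 in wild type, with the other tested genes at -0.69 or lower), which rose by 1.03 in Tlr3 KO. In Tlr4 KO 1 T cell gene fell and 1 myeloid and 1 mast cell gene rose. In MyD88 KO 3 T and NK, 4 B and plasma, 4 myeloid, 6 mast cell and 7 stromal genes rose. Of all features 36.4% rose there, a share that depends on the scaling. The T and NK share lay below it and the myeloid share slightly above it. The marker counts under median scaling are not given here. The summed mast cell level in MyD88 KO was -0.35 to 0.92 against -1.73 to -1.14 in wild type. The summed stromal level in MyD88 KO was 3.17 to 3.85, which overlapped the wild type, with an Acta2 difference of -0.49 (limma, adjusted p = 0.11). The single erythroid gene tested rose by 1.11 in Trif mut and 1.80 in MyD88 KO. The part of these cells in the values of the 44 genes was not tested.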

How the data were processed

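Epithelial cells were detached from the gut with EDTA and cleared of immune cells by sedimentation, and TRIzol RNA was labelled with Cy3, per the labels' protocols. The intensity used here is the processed signal deposited for each array, which Agilent Feature Extraction 10.7.3.1 had background-subtracted, per the file headers and the submitters' processing notes. The 1639 control spots and the 67 to 210 outlier spots per array were left out, and 0 spots were saturated. The deposited value table equals the processed signal multiplied by an array-specific factor (1.58 to 2.27) with a floor of 15; it is linear and not centred, has medians of 81 to 141, and served as an alternative.

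Signals were log2-transformed and scaled to each array's 75th percentile. Probes that exceeded background clearly on 4 or more of 20 arrays (31575, 76.7%) were kept, and a gene's brightest kept probe stood for it. Names come from the files, updated through RefSeq accessions (26690 probes matched, 3169 renamed). One group-means model (limma 3.58.1, R 4.3.3) covered all 20 arrays, with moderated variances and Benjamini-Hochberg adjustment over 21909 features at a threshold of 0.05. Precision is limited by having 4 arrays per genotype. The fit was tested on simulated data of this design, with noise drawn independently for each array and no slide effect. Of 50 simulated log2 changes of 0.5, between 13 and 16 were called in each comparison with wild type. Of 50 changes of 1, between 31 and 36 were called. In Tlr4 KO these counts were 16 and 33, so small changes there could be missed. The simulated Tlr4 KO data gave 145 calls in all, and the real data 693 lower and 2058 higher features. With fewer calls the adjusted threshold is stricter, so the simulated counts do not measure how many real changes were missed.

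The 44 genes and the other lists were chosen with earlier results of these data known. Array values are given for Myc, for the gene of each role with the largest and the smallest difference in Trif mut, and for genes that went against the rest; of each list, the up to 3 genes with the largest difference, and those against the direction of the rest where 5 or fewer. Same-numbered arrays of wild type and Tlr4 KO deviated together (r of 0.16 to 0.32 over all features), which pairs them by the rule that every pair exceeds 0.1; the lowest r was 0.09 for Trif mut, -0.06 for Tlr3 KO and -0.22 for MyD88 KO. Alternatives were normexp, quantile and median scaling, filters, probe means, other moderation, array weights, slide and replicate blocks, Xist as a covariate, the deposited table, a fold threshold and leaving out each array.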

Additional observations from a re-analysis of the deposited data

Results flagged for a closer look

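In 13 of 225 groups of 4 arrays, 1 array stood apart from the other 3 by a gap wider than Dixon's 95% critical value, and chance alone gives about 1 in 20 such groups. In 9 of the 13 the array was Tlr4 KO replicate 4, and in each of these it was the lowest. Its level was 1.78 for Bop1 (the other 3 arrays at 2.24 to 2.29), 0.87 for Bysl (1.46 to 1.54), 0.10 for Ddx18 (0.67 to 0.73) and -0.32 for Ddx21 (0.19 to 0.29). It was -0.030 for Heatr1 (0.71 to 0.79), 1.09 for Mrto4 (1.65 to 1.75), 2.58 for Nop58 (2.97 to 3.01), -2.17 for Utp15 (-1.64 to -1.55) and -0.11 for Utp6 (0.26 to 0.33). The mitosis genes were also lowest on that array among the Tlr4 KO arrays, with a median of -0.66.

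The other arrays were Trif mut replicate 2 for Bysl, at 0.10 (the others at 0.50 to 0.57), Trif mut replicate 4 for Rpf1, at 2.08 (1.78 to 1.80), wild type replicate 2 for Rrp1b, at -2.38 (-1.98 to -1.93), and MyD88 KO replicate 2 for Utp6, at 0.39 (0.25 to 0.27).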

How the results depend on the processing

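The fall of the 44 genes kept its direction in Trif mut and Tlr3 KO under every alternative run: 30 to 41 fell in Trif mut (34 with normexp) and 24 to 44 in Tlr3 KO, where 24 is the count with a log2 change of at least 1, and 0 rose. The lowest Trif mut count comes from the arrays where Xist exceeded Eif2s3y, with 1 Trif mut array. In Tlr4 KO 2 fell with median scaling, with the mean of a gene's probes, with array weights and with slide as a fixed block, 4 with trended and robust moderation and with slide as a random block, and 1 on the arrays where Xist exceeded Eif2s3y. In MyD88 KO 8 fell and 1 rose with median scaling (median -0.17), 1 fell with Xist as a covariate (median 0.50), and 1 rose with a log2 change of at least 1. The Xist fit cannot separate sex from genotype in MyD88 KO. Leaving out each array in turn gave 38 to 40 lower genes in Trif mut, 38 to 42 in Tlr3 KO and 0 to 1 in Tlr4 KO, and in MyD88 KO 1 to 3 lower (1 without MyD88 KO replicate 1) and 5 to 9 higher (5 without MyD88 KO replicate 2 or wild type replicate 2). The causes of these shifts were not tested. With the replicate block 39 fell in Trif mut, 42 in Tlr3 KO and 0 in Tlr4 KO, and in MyD88 KO 2 fell and 8 rose, and Myc in Tlr4 KO had an adjusted p of 0.61. Outside MyD88 KO the replicate number is also the slide, so the slide blocks above pair the same arrays, and there the Tlr4 KO count did move.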
